A study of Oryza sativa with 12 samples.

Results

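The genes described here are 4 rice genes whose enzymes take free auxin out of action: GH3.2 (LOC4326893), GH3-8 (LOC4343785), GH3.4 (LOC4339234) and IAMT1 (LOC4337315). They were taken by gene identifier from the 17905 genes that the array's annotation pairs with a probe set, and each of the 4 has exactly 1 probe set. The members were selected on measured values of these arrays, but the comparison that chose each is not stated. The GH3 genes are taken here as chosen on their change after auxin, and IAMT1 on its difference between the genotypes. Those contrasts are therefore given below as a description, without a test. Whether the other comparisons are independent of the choice is not known. RNA came from stem bases of 8-day-old seedlings of rice (Oryza sativa, cultivar Taichung 65), the place where crown roots form, kept in half-strength Murashige and Skoog liquid medium. The groups were crl1 (crown rootless 1, a mutant without crown roots, whose allele is not stated in the labels) and wild type, each at 0 h, just before indole-3-acetic acid (IAA) was added to 1e-06 M, and at 2 h and 4 h after it. Each of the 6 groups had 2 arrays from independent repetitions, 12 in all, and each extract pooled 20 stem bases. No group was left without auxin for 2 h or 4 h, so auxin and the passage of time cannot be told apart in these changes.

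Auxin acts by removing Aux/IAA repressors, which frees auxin response factors to switch on early genes, and several GH3 genes are among those early genes. GH3 enzymes of the auxin-conjugating kind join IAA to amino acids, which lowers the pool of free hormone. The rice GH3-8 protein is known to form an aspartate conjugate of IAA. IAMT1 inactivates IAA by another route: it transfers a methyl group to the acid and gives methyl-IAA, a form without auxin activity until an esterase removes the methyl group. Conjugates with some amino acids can be split again by hydrolases of the ILR1 and ILL kind, and IAA can be oxidised by the dioxygenase DAO. CRL1 is a transcription factor of the LBD family that acts in crown root initiation. Its own level was not analysed here, since a search of the gene table for CRL1, ARL1 and both names with the prefix Os found 0 entries.

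The signals are linear intensities, 1 per probe set, scaled by the authors so that the trimmed mean of every array was 100. An array's background is the 95th percentile of 64 reporter probe sets for genes that rice lacks. The 12 backgrounds lay between 5.83 and 18.5, below 42.8% to 57.0% of the rice probe sets. Repetition 2 of wild type at 2 h stood apart: its hybridisation controls averaged 4121, against 1426 to 2304 on the other 11 arrays, its poly-A controls 791, against 98.0 to 323, and its actin 3'/5' ratio was 62.3, against 13.2 to 40.4. It correlated with the other arrays at 0.904 on average, against 0.935 to 0.949 for the rest. All 4 genes read higher on it than on repetition 1 of the same group, so the effect of leaving it out is given beside the values for wild type at 2 h. Of 2 GAPDH 3'/5' ratios, 1 also set it apart (35.6, against 3.08 to 17.3) and the other did not (23.0, against 1.43 to 32.3). The latter was 27.7 and 28.5 in crl1 at 0 h, against 2.28 and 4.07 in crl1 at 2 h. The former was 3.08 and 8.72, against 5.18 and 7.54, on the same arrays. The effect of these ratios was not tested. The shoot meristem markers OSH1, OSH6 and OSH71 were above background on 12 of 12 arrays, while 1 of the 2 OSH43 probe sets was above it on 0 of 12. WOX11, a marker of crown root primordia, was above it on 12 of 12 and QHB on 8 of 12. The leaf genes CAB2R and RBCS were also above it on 12 of 12 arrays, apart from 1 RBCS probe set that was above it on 0 of 12.

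**Figure D1:**
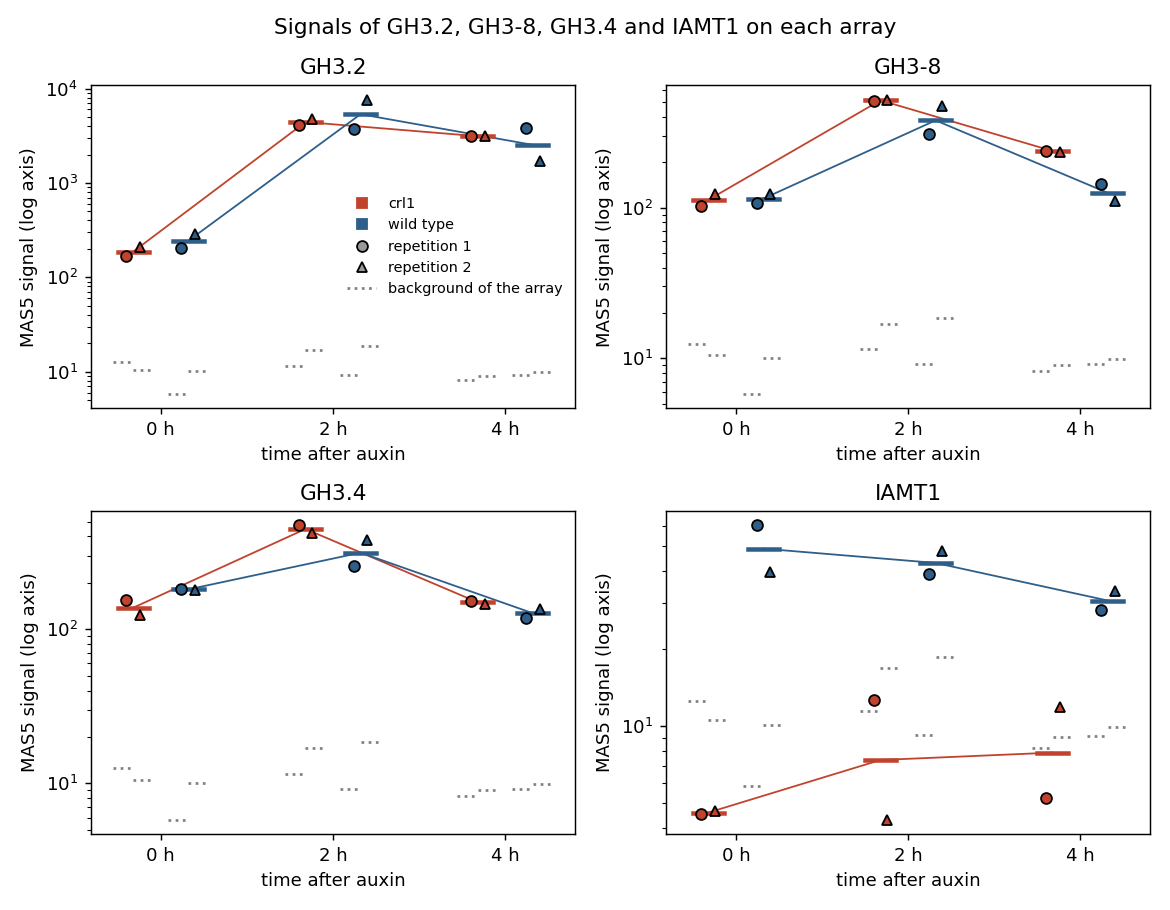
Signal of each gene on each array (log axis) by time after auxin, with crl1 left of wild type. Circles are repetition 1, triangles repetition 2, horizontal bars the geometric mean of 2 arrays, and dotted lines the background of each array. GH3.2 stays high at 4 h, GH3-8 and GH3.4 peak at 2 h, and IAMT1 is low in crl1 at every time.

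GH3.2 was the member with the greatest change after auxin, and its high signal lasted to 4 h in both genotypes. At 0 h it read 166 and 210.4 in crl1, against 205 and 290.0 in wild type. At 2 h it read 4099 and 4766 in crl1, against 3748 and 7631 in wild type. At 4 h it read 3110.1 and 3146 in crl1, against 3796 and 1688 in wild type. Every array with auxin was above every array without it, and crl1 and wild type overlapped at each time. The 2 h signal was 23.6-fold the 0 h signal in crl1 and 21.9-fold in wild type (log2 4.56 and 4.46, SE 0.39), and within single repetitions it was 24.6-fold and 22.6-fold in crl1 and 18.3-fold and 26.3-fold in wild type. The 4 h signal was 16.7-fold the 0 h signal in crl1 and 10.4-fold in wild type. The repetitions of wild type disagreed on the hours between 2 h and 4 h: repetition 1 was almost level at 1.01-fold, while repetition 2 was 4.52-fold lower at 4 h. The high value of repetition 2 at 2 h lies on the array that stands apart. Without that array the log2 change of wild type to 2 h was 3.94.

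GH3-8 gave a smaller and shorter response. At 0 h it read 103 and 123 in crl1, against 108 and 122 in wild type. At 2 h it read 509 and 519.9 in crl1, against 306 and 469 in wild type. At 4 h it read 239 and 235 in crl1, against 143 and 110.0 in wild type. Both crl1 arrays lay above both wild-type arrays at 2 h and at 4 h, while the genotypes overlapped at 0 h. Such separation of 2 arrays from 2 carries little weight, and how many of all probe sets show it was not computed. At 4 h the signal in crl1 was still 2.11-fold its 0 h signal, whereas the wild-type arrays overlapped those of 0 h (log2 0.13 ± 0.24, SE). The change from 0 h to 2 h was 4.57-fold in crl1 and 3.30-fold in wild type, and without the array that stands apart the change in wild type was 1.41 in log2.

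GH3.4 responded least of the 3 GH3 genes, and in both genotypes it was back near or under its starting signal at 4 h. At 0 h it read 155 and 123 in crl1, against 182 and 181 in wild type. At 2 h it read 472 and 424 in crl1, against 259 and 381 in wild type. At 4 h it read 153 and 146 in crl1, against 119 and 136 in wild type. The crl1 arrays were below the wild-type arrays at 0 h and above them at 2 h and at 4 h, with no overlap at any time. With 2 arrays per group this separation carries little weight, and its share over all probe sets was not computed. The 2 h signal was 3.24-fold the 0 h signal in crl1 and 1.73-fold in wild type. The 4 h signal differed from that of 0 h by 0.12 ± 0.23 in crl1 and by -0.51 ± 0.23 in wild type (log2, SE). Without the wild-type array that stands apart, the log2 change of wild type to 2 h was 0.51.

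These responses are taken to be among those that chose the GH3 genes, so the counts that follow are background and carry no reading about them. A probe set is called where its adjusted p, from limma with Benjamini-Hochberg adjustment over 32524 probe sets, is under 0.05. In crl1 at 2 h 3 of the 4 genes were called, all of them GH3 genes, where 0.04% of all probe sets were. In wild type at 2 h GH3.2 was the 1 called probe set of the whole table (0.00307%). GH3.2 was the member called at 4 h in each genotype, where 0.0154% of probe sets were called in crl1 and 0.0184% in wild type. Several of these calls ended when 1 array was left out. For GH3.2 they ended in crl1 at 2 h without crl1 2 h repetition 1 (log2 4.67) or repetition 2 (4.45), and in wild type at 2 h without wild type 0 h repetition 1 (4.20) or repetition 2 (4.71) or wild type 2 h repetition 2 (3.94). At 4 h its call in crl1 ended without crl1 0 h repetition 1 (3.89) or crl1 4 h repetition 1 (4.07) or repetition 2 (4.05), and its call in wild type held in 3 of 12 such fits, with log2 changes of 2.79 to 3.96. The call of GH3-8 in crl1 at 2 h ended without either crl1 array of 0 h or of 2 h (2.07 to 2.32) and held in 8 of 12 fits. That of GH3.4 held in 2 of 12, those without wild type 2 h repetition 1 or repetition 2, and its log2 change ran from 1.53 to 1.86. Both calls also ended with arrays centred on their median, at 1.99 for GH3-8 and 1.49 for GH3.4.

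The comparison of crl1 with wild type asks whether the mutant makes different amounts of these transcripts. It is taken to have had no part in the choice of the GH3 genes, though this is not stated. None of the 3 passed the threshold at any time in limma. Before adjustment the p was under 0.05 for 0 of the 3 at 0 h, and for 1 of 3 at 2 h, at 4 h and over all times, beside 9.05%, 11%, 7.36% and 16.6% of all probe sets in these 4 comparisons. For GH3.2 the log2 difference, crl1 minus wild type, was -0.38 at 0 h, -0.27 at 2 h and 0.31 at 4 h (SE 0.39), with adjusted p of 0.80, 0.80 and 0.93 in limma. Its 95% interval at 2 h ran from -1.14 to 0.59. For GH3-8 the differences were -0.03, 0.44 and 0.92 (SE 0.24), with adjusted p of 0.98, 0.50 and 0.34 in limma. The difference of 0.92 at 4 h is 1.89-fold, and its interval before any adjustment ran from 0.39 to 1.45. For GH3.4 they were -0.39, 0.51 and 0.23 (SE 0.23), with adjusted p of 0.63, 0.45 and 0.90 in limma, and the interval at 2 h ran from 0.01 to 1.01. Averaged over the times, the differences were -0.12 ± 0.23 for GH3.2, 0.45 ± 0.14 for GH3-8 and 0.12 ± 0.13 for GH3.4 (SE), with limma's adjusted p of 0.83, 0.15 and 0.69. Over all probe sets 0.101% were called at 0 h, 0.0738% at 2 h, 0.0799% at 4 h and 1.38% over all times. Without wild type 2 h repetition 2, the 2 h difference was 0.24 for GH3.2, a turned sign, 0.75 for GH3-8 and 0.79 for GH3.4. Over all times it was then 0.05 for GH3.2, also a turned sign, 0.55 for GH3-8 and 0.21 for GH3.4, and none of these passed.

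**Figure D2:**
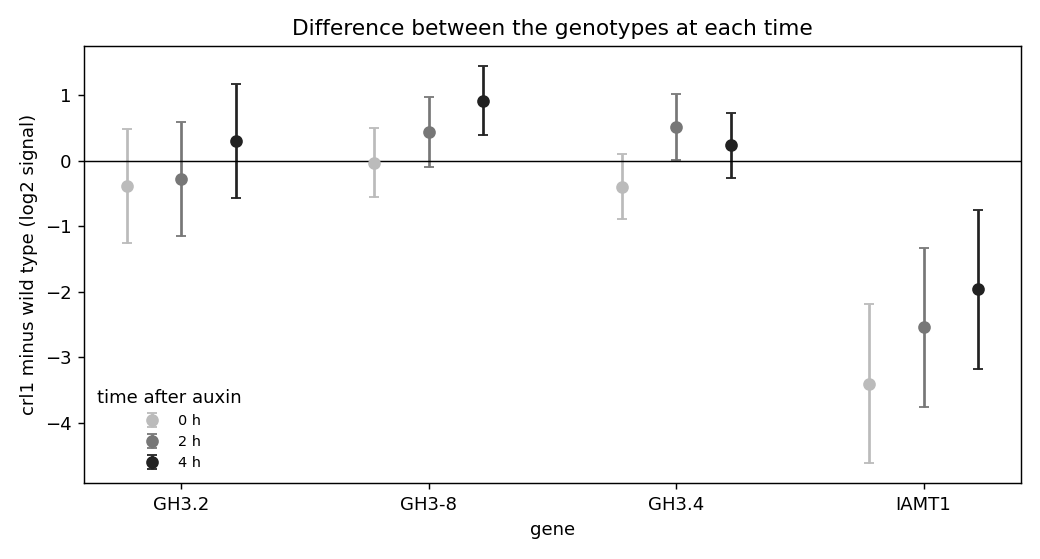
Log2 signal of crl1 minus that of wild type for each gene at 0 h, 2 h and 4 h (grey to black), with 95% intervals from the model before adjustment. The intervals of GH3.2 cross 0 at every time, the interval of GH3-8 at 4 h runs from 0.39 to 1.45, and IAMT1 lies below 0 throughout.

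The difference of the responses, the change in crl1 minus the change in wild type, was above 0 for all 4 genes at both times. It is built from the contrasts taken to have chosen the genes, so it is not independent of the choice. None of the 4 passed in limma, while before adjustment 1 of 4 had a p under 0.05 at each time. At 2 h it was 0.11 ± 0.56 for GH3.2, 0.47 ± 0.34 for GH3-8, 0.91 ± 0.32 for GH3.4 and 0.86 ± 0.78 for IAMT1 (log2, SE), with adjusted p of 0.87 to 0.99 in limma. At 4 h it was 0.69 ± 0.56, 0.95 ± 0.34, 0.63 ± 0.32 and 1.44 ± 0.78 for the same genes in the same order, each with an adjusted p of 0.99 in limma. The median of this difference over all probe sets was also above 0, at 0.10 for 2 h and 0.07 for 4 h. Across the table limma called 0% of probe sets at either time, while 1831 (5.63%) at 2 h and 1090 (3.35%) at 4 h had an unadjusted p under 0.05. With signals raised to background, the difference for IAMT1 was 0.53 at 2 h and 0.45 at 4 h. Without wild type 2 h repetition 2, the 2 h difference was 0.62 for GH3.2, 0.78 for GH3-8, 1.18 for GH3.4 and 1.01 for IAMT1. The 2 h difference for GH3.2 turned sign in 4 of 12 fits that left out a single array, and ran from -0.41 to 0.62.

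GH3-8 and GH3.4 read lower at 4 h than at 2 h on every array of both genotypes, but none of these changes passed in the main fit. With repetition as a replicate block, which the main fit leaves out, GH3-8 in wild type and GH3.4 in crl1 passed. The comparison of 4 h with 2 h shares the 2 h arrays with the responses taken to have chosen the genes, so it is not independent of them. For GH3-8 the log2 change, 4 h minus 2 h, was -1.12 in crl1 and -1.60 in wild type (SE 0.24), with adjusted p of 0.24 and 0.057 in limma. For GH3.4 it was -1.58 in crl1 and -1.30 in wild type (SE 0.23), with adjusted p of 0.059 and 0.085 in limma. For GH3.2 it was -0.50 in crl1 and -1.08 in wild type (SE 0.39), with adjusted p of 0.89 and 0.34 in limma. None of the 4 genes was called, where 0.0277% of all probe sets were called in crl1 and 0.0338% in wild type. Before adjustment 2 of 4 in crl1 and 3 of 4 in wild type had a p under 0.05 in limma, beside 7.71% and 12.4% of all probe sets. Without wild type 2 h repetition 1, the changes in wild type were -1.59 for GH3.2, -1.91 for GH3-8 and -1.58 for GH3.4, all past the threshold, but that fit rests on the 2 h array that stands apart and calls 5006 probe sets. Without that other array, repetition 2, they were -0.57, -1.29 and -1.03 and none passed. GH3.4 in crl1 (-1.58) passed without either wild-type array of 2 h.

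IAMT1 was low in crl1 at every time, and its change after auxin passed in neither genotype. At 0 h it read 4.55 and 4.67 in crl1, against 60.3 and 39.8 in wild type. At 2 h it read 12.6 and 4.33 in crl1, against 38.9 and 47.7 in wild type. At 4 h it read 5.26 and 11.8 in crl1, against 28.2 and 33.6 in wild type. The genotypes did not overlap, and the highest crl1 array lay below the lowest wild-type array. All wild-type arrays were above their background. In crl1 IAMT1 was above background on 0 of 2 arrays at 0 h, 1 of 2 at 2 h and 1 of 2 at 4 h, so its level there is near the limit of the array. At 0 h it was at least 4.26-fold lower in crl1, with the crl1 arrays taken at the background. In the fit to the deposited signals the log2 difference was -3.41 at 0 h, -2.55 at 2 h, -1.96 at 4 h and -2.64 ± 0.32 (SE) over all times. These differences are taken to have chosen the gene. With signals raised to the background of their array, the difference over all times was -1.77. The difference at 2 h was -2.40 without wild type 2 h repetition 2.

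The response of IAMT1 to auxin is taken to have had no part in its choice, though this is not stated. The log2 change to 2 h was 0.68 in crl1 and -0.18 in wild type, and to 4 h 0.77 in crl1 and -0.67 in wild type (SE 0.55). The adjusted p from limma ran from 0.88 to 1.0. With signals raised to background the change to 4 h in crl1 was -0.22, so the sign of 0.77 rests on values below background. The change to 2 h in wild type was -0.33 without wild type 2 h repetition 2. In wild type, where all signals were measured, the 95% interval of the 4 h change ran from -1.88 to 0.54. From 2 h to 4 h its change was 0.10 in crl1 and -0.49 in wild type, with adjusted p of 1.0 and 0.75 in limma. With signals raised to background the change in crl1 was -0.56, again a turned sign. The change in wild type was -0.34 without wild type 2 h repetition 2.

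In bulk stem bases, fewer cells of a type and less RNA per cell cannot be told apart. PIN2, an auxin efflux carrier of the root, read 4.53 to 12.9 in crl1, against 22.8 to 39.8 in wild type. RSS1, a regulator of dividing cells, read 80.8 to 154 in crl1, against 96.9 to 143 in wild type. The summed signal of the 2 markers on the root list, PIN2 and RSS1, was 90.1 to 167 in crl1, against 127 to 182 in wild type. It was mostly RSS1, so it is not a measure of root cells alone. Of the crown root primordium markers, QHB read 5.47 to 17.9 in crl1, against 10.0 to 23.2 in wild type, and WOX11 359 to 2307 in crl1, against 176 to 1659 in wild type. Their summed signal had a median of 409 in crl1, against 422 in wild type, and was mostly WOX11 (medians of 401 and 407). The median of QHB was 7.71 in crl1, against 15.3 in wild type. Of these 4 genes PIN2 moved with IAMT1 without overlap, and the part of root cells in the IAMT1 difference was not tested.

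The other GH3 genes show whether the family as a whole moved. The gene table names 6 besides the 3 members, and 5 were bright enough to test: GH3.1, GH3.5, GH3.6, GH3.7 and GH3.11. GH3.9 lay above background on 1 of 2 arrays in wild type at 2 h and on no other array. None of the 5 passed in any of the 12 comparisons of the main fit in limma. With repetition as a replicate block, GH3.1 passed in crl1 at 2 h and in wild type from 2 h to 4 h. Of the 60 tests of these 5 genes in the main fit, 10 had an unadjusted p under 0.05 in limma, beside 8.26% of the tests of all probe sets. Most of the 10 were tests of GH3.1, in comparisons that share arrays, and the rest were of GH3.7 and GH3.11. Their median log2 change to 2 h was 0.44 in crl1, with 5 of 5 above 0, and -0.12 in wild type, with 1 of 5 above 0. The medians over all probe sets were 0.05 in crl1 and -0.03 in wild type. Without wild type 2 h repetition 2, the median of the 5 in wild type was near 0, at -0.0034, with 2 of 5 above 0. GH3.1 (LOC4327043) had the pattern of GH3.4: it read 191 and 277 at 0 h, 946 and 798 at 2 h and 303 and 334 at 4 h in crl1, against 293 and 383, 447 and 898, and 140 and 202 in wild type. The crl1 arrays of 2 h lay above all other crl1 arrays. Its log2 change to 2 h was 1.92 ± 0.33 (SE) in crl1 and 0.92 ± 0.33 in wild type, with adjusted p of 0.13 and 0.58 in limma. The change in crl1 passed without wild type 2 h repetition 1 or repetition 2 and with array weights. Without repetition 2 the change in wild type was 0.42. GH3.5, known as JAR1, makes the jasmonate conjugate with isoleucine and is not known as an auxin-conjugating enzyme. Its log2 change to 2 h was 0.44 in crl1 and -0.02 in wild type, and GH3.6 and GH3.7 had changes of 0.26 and 0.23 in crl1 and -0.14 and -0.12 in wild type. GH3.7 has 3 probe sets, and for it, as for every gene of the lists, the fit used the brightest kept probe set. Without wild type 2 h repetition 2, the changes in wild type were 0.44 for GH3.5, -0.50 for GH3.6 and -0.07 for GH3.7. GH3.11 read 18.3 and 0.519 in wild type at 2 h, and its change of -2.57 ± 1.21 (SE) there rests on a signal below background on the array that stands apart and is -0.0034 without it.

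Other steps of auxin turnover gave single genes. DAO (LOC4336150), the dioxygenase that oxidises IAA, read 1471 and 930 at 0 h, 3116 and 3596 at 2 h and 1692 and 1567 at 4 h in crl1, against 1130 and 1374, 2694 and 3688, and 1576 and 1293 in wild type. All 4 arrays of 2 h were above all arrays of 0 h and 4 h, in a pattern shared by both genotypes. Its log2 change to 2 h was 1.52 ± 0.25 in crl1 and 1.34 ± 0.25 in wild type (SE), with adjusted p of 0.11 and 0.53 in limma, so it did not pass. FIB (LOC4325198), a tryptophan aminotransferase of auxin synthesis, had changes of 1.36 ± 0.30 in crl1 and 1.12 ± 0.30 in wild type at 2 h (log2, SE), with adjusted p of 0.31 and 0.55 in limma. The change in wild type was 1.11 for DAO and 0.91 for FIB without wild type 2 h repetition 2. YUCCA1 (LOC9269185), a flavin monooxygenase of auxin synthesis, has 2 probe sets, and neither was above background on both arrays of any group.

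**Figure D3:**
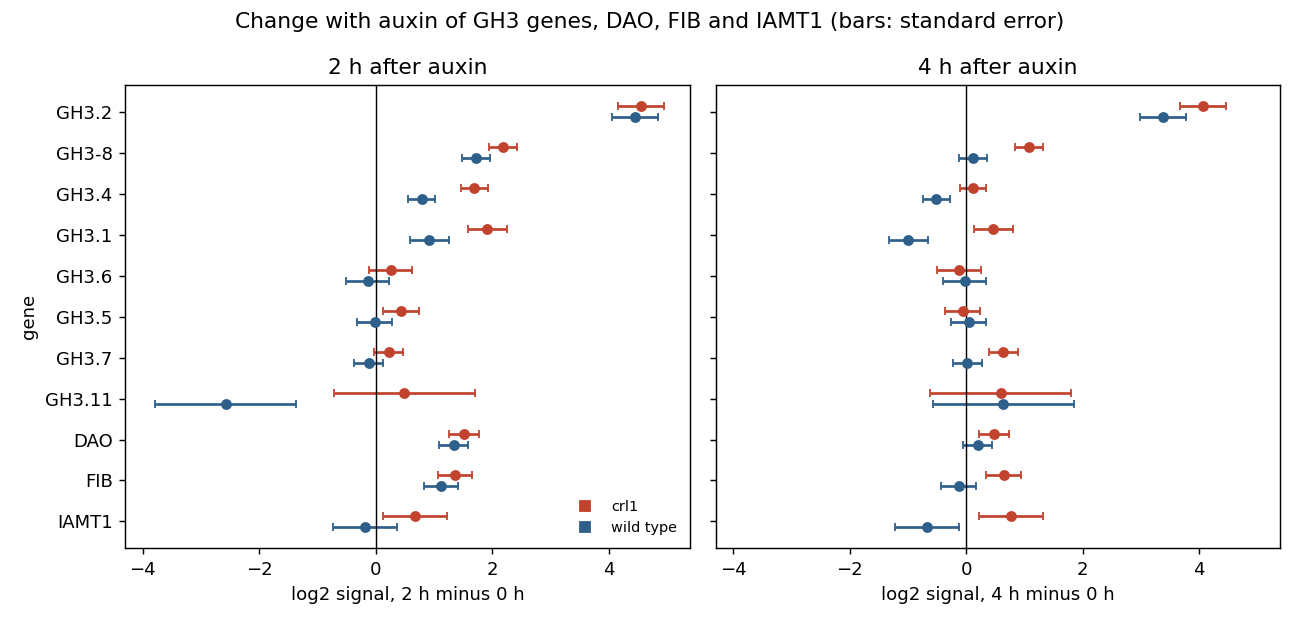
Log2 signal at 2 h (left) and 4 h (right) minus that at 0 h for the GH3 genes, DAO, FIB and IAMT1, with crl1 (red) above wild type (blue) and bars for the standard error. GH3.2 lies at 4.56 in crl1 and 4.46 in wild type at 2 h, and GH3-8, GH3.4, GH3.1, DAO and FIB lie above 0 there in both. At 4 h GH3.4, GH3.1 and FIB lie below 0 in wild type, at -0.51, -0.99 and -0.13.

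Of the 7 hydrolases that free auxin from its conjugates, 0 passed after auxin in either genotype. In these comparisons 0 of 28 tests had an unadjusted p under 0.05 in limma, beside 5.1% to 7.8% of all probe sets. Between the genotypes 1 passed over all times, where 1.38% of all probe sets were called. Before adjustment 1 of 7 had a p under 0.05 at 0 h and at 2 h, 3 at 4 h and 4 over all times. The shares of all probe sets were 9.05%, 11%, 7.36% and 16.6%. ILL8 (LOC4342839) was higher in crl1 over all times by 0.90 ± 0.16 (log2, SE; adjusted p = 0.027 in limma). It read 42.3 and 36.5 at 0 h, 47.2 and 39.4 at 2 h and 39.6 and 36.1 at 4 h in crl1, against 25.5 and 21.0, 22.2 and 22.7, and 16.1 and 22.1 in wild type. No crl1 array overlapped a wild-type array. Its call held in 4 of 12 fits that left out an array (crl1 0 h repetition 2, wild type 2 h repetition 1 or 2, or wild type 4 h repetition 2), and the difference ran from 0.83 to 0.98. The call ended when all rice probe sets were tested without the filter. The median difference of the 7 hydrolases over all times was 0.33, with 6 of 7 above 0, beside 0.03 over all probe sets. Of 5 auxin transporters tested, 1 passed, PIN2 (LOC4341736), where 0.101% of all probe sets were called at 0 h and 1.38% over all times. It was above background on 8 of 12 arrays. Under the 7 alternatives that kept every array, its log2 difference ran from -2.86 to -1.30 at 0 h and from -1.89 to -0.89 over all times. In the main fit PIN2 was lower in crl1, with a log2 difference of -2.80 ± 0.39 at 0 h and -1.79 ± 0.22 over all times (SE; adjusted p of 0.027 and 0.0035 in limma). The first call held in 4 of 12 fits, those without any one of the 4 arrays of 2 h, and ended without the filter and with signals raised to background, and the second held in 12 of 12.

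The Aux/IAA genes, whose proteins are the repressors that auxin removes and which are early auxin genes themselves, give a yardstick for the response. Of 25 tested, 1 was called higher at 2 h in crl1, where limma called 0.04% of all probe sets. In wild type 0 were, where limma called 1 probe set in the table and 2538 had an unadjusted p under 0.05. The one in crl1 was IAA20 (LOC4340245), which changed by 5.85 ± 0.72 (log2, SE; adjusted p = 0.022 in limma), against 5.45 in wild type (adjusted p = 0.10 in limma; 5.28 without wild type 2 h repetition 2). It read 666 and 796 at 2 h, against 15.3 and 10.5 at 0 h, in crl1, where 1 of the 2 arrays of 0 h was above background. The size of its change therefore rests on a baseline near background. Under the alternatives that kept every array, the change ran from 4.69 to 5.85 in crl1 and from 4.65 to 5.45 in wild type. In wild type it read 811 and 1032 at 2 h, against 16.7 and 26.2 at 0 h. Its call held in 8 of 12 fits with 1 array left out and ended without either crl1 array of 0 h or of 2 h, and with arrays centred on their median. Before adjustment 15 of the 25 had a p under 0.05 in crl1 and 11 of 25 in wild type, beside 5.1% and 7.8% of all probe sets. The median Aux/IAA change to 2 h was 0.58 in crl1, with 20 of 25 above 0, and 0.45 in wild type, with 18 of 25 above 0 (0.38 and 20 of 25 without wild type 2 h repetition 2). At 4 h the medians were 0.08 in crl1 and 0.02 in wild type. Between the genotypes 1 of the 25 was called over all times, where 1.38% of all probe sets were. IAA2 (LOC4326775) was lower in crl1 over all times, with a log2 difference of -0.63 ± 0.13 (SE; adjusted p = 0.041 in limma), a call that held in 2 of 12 fits, those without crl1 0 h repetition 2 or wild type 2 h repetition 1, and that ended without the filter.

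The genes most like each member were ranked by Pearson's r of log2 signals over the 12 arrays, among 2307 genes with a name of their own. The arrays share 6 groups, so r is a description and has no p. For GH3.2 the closest was IAA20, at 0.979, followed by cdsp32 (0.891), NAC067 (0.839), HMA5 (0.803) and GH3-8 (0.798). IAA20 shares with GH3.2 the uneven 4 h arrays of wild type, where it read 652 and 85.4. For GH3-8 the closest were IAA15 (0.961), another Aux/IAA gene, NAC067 (0.949), the sugar transporter OsSWEET16 (0.932), PP2C68 (0.931) and DAO (0.928). For GH3.4 the closest was the homeobox gene OsWOX6 (0.975), followed by OsPP2C09 (0.940), GH3.1 (0.936), OsWOX11 (0.924) and PCF2 (0.904). OsWOX11, a gene of crown root emergence, read 1897 and 2307 at 2 h in crl1, against 1659 and 1114 in wild type. OsWOX6 read 589 and 503 at 2 h in crl1, against 338 and 408 in wild type.

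For IAMT1 the closest were Agglutinin (0.934), the expansin EXPB18 (0.894), chia4a (0.891), IRL2 (0.891) and OsCASPL3A1 (0.890). All 5 were lower in every crl1 array than in every wild-type array of the same time, as IAMT1 itself was. They were picked for likeness to IAMT1 on these same arrays, so this largely follows from the choice. Agglutinin read 9.38 to 59.8 in crl1, against 1391 to 2454 in wild type. By rank correlation 0 of these 5 stayed among the 5 closest, against 3 for GH3.2, 3 for GH3-8 and 2 for GH3.4. Among the members, r was 0.860 between GH3-8 and GH3.4, 0.798 between GH3.2 and GH3-8 and 0.499 between GH3.2 and GH3.4. With IAMT1 the GH3 genes had r of -0.12 to 0.09.

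**Figure D4:**
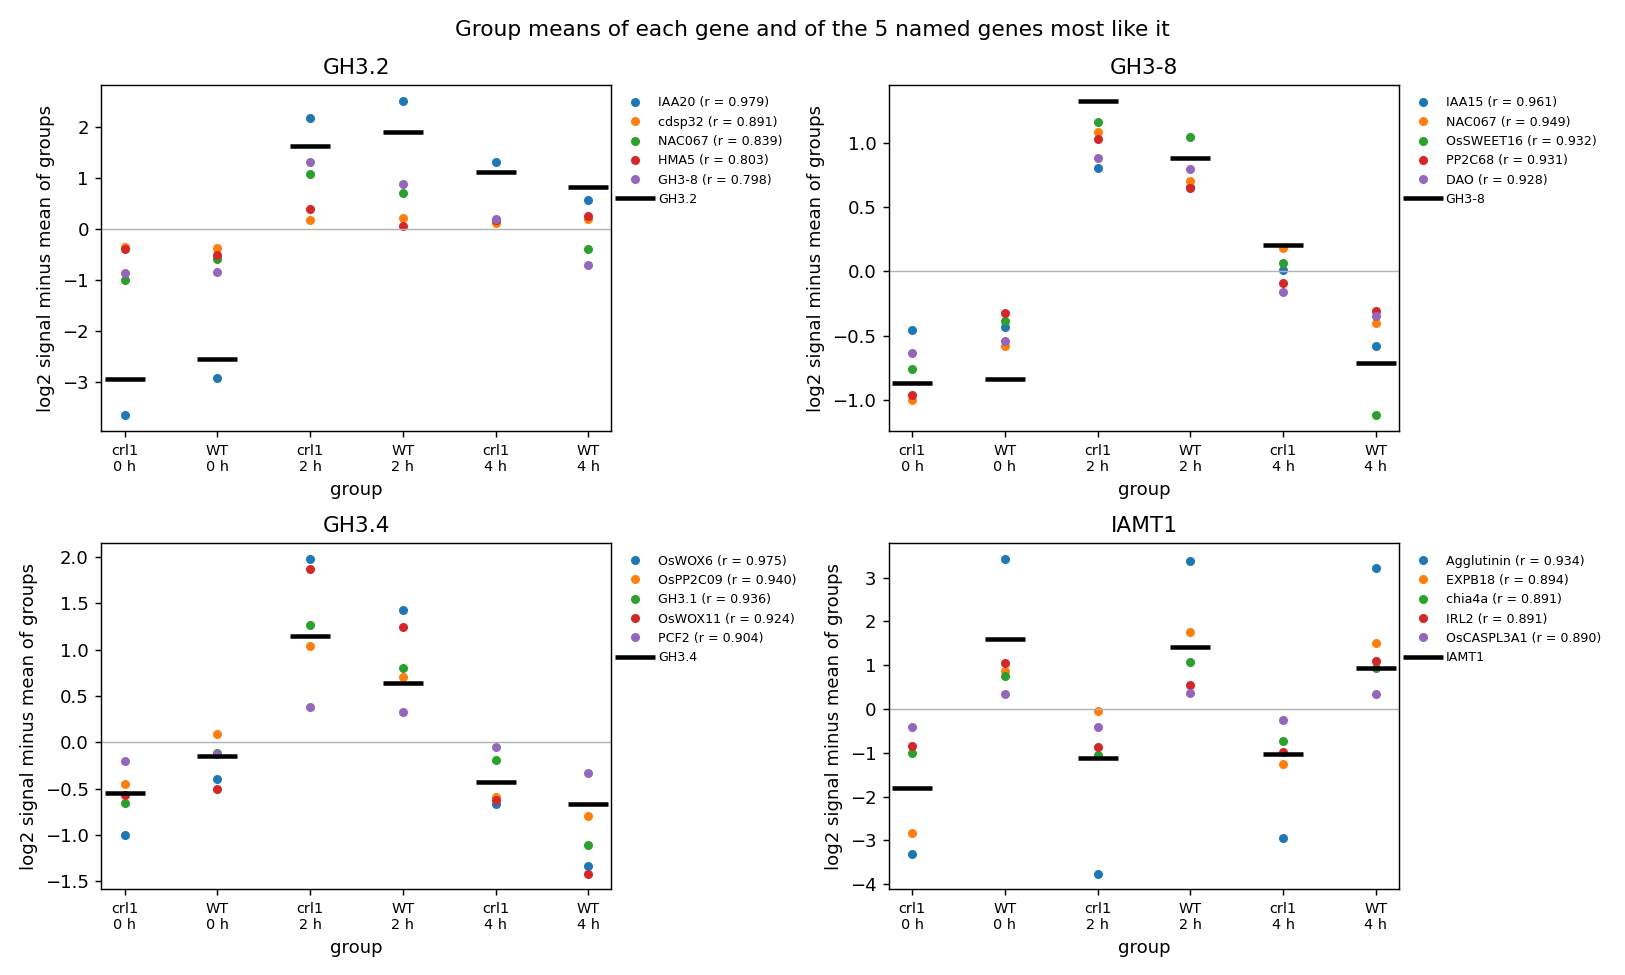
Mean log2 signal of each group minus the mean of the 6 groups, for each gene (black bars) and the 5 named genes most like it (coloured points), with crl1 left of wild type at each time. The points of IAA20 follow GH3.2 at every group, those of OsWOX6 and OsWOX11 peak with GH3.4 at 2 h, and those of the IAMT1 panel are low in crl1.

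Ordered by mean log2 signal, the groups of GH3.2 ran from wild type 2 h through crl1 2 h, crl1 4 h, wild type 4 h and wild type 0 h to crl1 0 h. Its neighbours in that order overlapped except between crl1 2 h and crl1 4 h and between wild type 4 h and wild type 0 h. For GH3-8 the order was crl1 2 h, wild type 2 h, crl1 4 h, wild type 4 h, wild type 0 h and crl1 0 h, with overlap among the last 3. For GH3.4 it was crl1 2 h, wild type 2 h, wild type 0 h, crl1 4 h, crl1 0 h and wild type 4 h, also with overlap between neighbours among the last 3. For IAMT1 it was wild type 0 h, 2 h and 4 h, then crl1 4 h, 2 h and 0 h, with overlap between the first 2 and between neighbours among the last 3.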

How the data were processed

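Each deposited value is a linear intensity: the authors computed MAS5 signals with Affymetrix Expression Console, per the submitters' processing notes. Versions are not given in the sources used here. The table holds 57381 probe sets: 57194 for rice, 64 reporters and 123 controls. The platform annotation pairs 22436 probe sets with 1 gene and 95 with several, and leaves 34663 rice probe sets unnamed. All 17905 genes were found in the gene table. Deposited signals were turned to log2 without further scaling (the mean trimmed by 2% at each end was 100 on every array). Rice probe sets above the array's rice median on at least 2 of 12 arrays were kept, which left 32524 and all 4 members. The model was fitted in R 4.3.3 with limma 3.58.1 (1 mean per group, eBayes with trend; 6 residual degrees of freedom, median prior 4.79), two-sided, with Benjamini-Hochberg adjustment over all kept probe sets and a threshold of 0.05. The number of arrays limits the precision. The fit was tested on simulated data.

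The members, gene lists and markers were chosen with earlier results of these data known. Named genes were the members, every measured gene of the GH3, auxin synthesis and oxidation lists, up to 4 passing genes of the hydrolase, transporter and Aux/IAA lists, and the 5 named genes most like each member. 0 genes were found for auxin receptors and for other methyltransferases or methyl esterases. The LAX PANICLE genes were left out of the transporters. Alternatives tried were a replicate block, quantile normalization, median centring, log2(signal + 16), no filter, array weights, leaving out each array and, added after seeing the data, signals raised to background. Protein and promoter sequences were not used here.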

Additional observations from a re-analysis of the deposited data

How the results depend on the processing

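Of 912 values for the members (48 results under 19 alternatives), 859 stayed on their side of the threshold, 33 lost a call, 20 gained one and 0 values past it turned sign. Deviations of same-numbered arrays correlated above 0.1 in 11 of 15 pairs of groups (0.00776 to 0.249, median 0.133). In every group repetition 2 was above repetition 1 in its hybridisation controls, its poly-A controls and its median rice signal. The repetitions therefore differed, and the main fit does not take this into account. With repetition as a replicate block, GH3-8 in wild type (4 h minus 2 h, -1.60), GH3.4 in crl1 (4 h minus 2 h, -1.58) and IAMT1 in crl1 against wild type at 0 h (-3.41) passed. With median centring, GH3-8 (1.99) and GH3.4 (1.49) in crl1 at 2 h no longer passed. With log2(signal + 16), GH3.4 in crl1 (4 h minus 2 h, -1.48) and IAMT1 at 0 h (-1.66) passed. With array weights, 4 h minus 2 h passed in crl1 for GH3-8 (-1.12) and GH3.4 (-1.58). With signals raised to background, the same change passed for GH3-8 in wild type (-1.60) and GH3.4 in crl1 (-1.58), as did IAMT1 at 0 h (-2.09). The causes were not tested. The differences of IAMT1 between the genotypes and the changes of the GH3 genes from 0 h are taken to have chosen the genes. Calls gained or lost in those contrasts are therefore a description and carry no reading about the genes.

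With each array left out in turn, the log2 change of GH3.2 to 2 h ran from 4.39 to 4.73 in crl1 and from 3.94 to 4.97 in wild type, to 4 h from 3.89 to 4.23 in crl1 and from 2.79 to 3.96 in wild type, and from 2 h to 4 h in wild type from -1.66 to -0.49. GH3-8 ran from 2.07 to 2.32 in crl1 and from 1.41 to 2.03 in wild type to 2 h, and from -1.91 to -1.29 between 2 h and 4 h in wild type. GH3.4 ran from 1.53 to 1.86 in crl1 and from 0.51 to 1.07 in wild type to 2 h, and between 2 h and 4 h from -1.66 to -1.50 in crl1 and from -1.58 to -1.03 in wild type. IAMT1 ran from -3.71 to -3.11 at 0 h and from -3.31 to -1.78 at 2 h between the genotypes.

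Counts of called probe sets were unstable. For crl1 against wild type they were 33 at 0 h (71 with the block, 52 with weights; 0 to 50 with an array left out), 24 at 2 h (12 with weights; 11 to 4761), 26 at 4 h (17 without the filter, 99 with weights; 7 to 44) and 449 over all times (1037 with the block; 151 to 3675). At 2 h against 0 h they were 13 in crl1 (43 with the block, 2 centred, 21 with 16 added, 30 with weights; 0 to 29) and 1 in wild type (2 with the block, 4 raised to background; 0 to 3376). At 4 h against 0 h they were 5 in crl1 (16 with the block, 11 with weights; 0 to 10) and 6 in wild type (44 with the block, 13 centred, 108 with weights, 11 raised to background; 0 to 55). At 4 h against 2 h they were 9 in crl1 (22 with the block, 4 centred, 20 with 16 added, 321 with weights, 20 raised to background; 0 to 40) and 11 in wild type (95 with the block, 0 with weights, 34 raised to background; 0 to 5006). For the difference of responses at 2 h they ran from 0 to 1022. The high ends at 2 h are the fits without wild type 2 h repetition 1.

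Among the lists, the block called 1 other GH3 gene in crl1 at 2 h and 1 in wild type from 2 h to 4 h, 2 hydrolases over all times, and 2 Aux/IAA genes in crl1 at 2 h, 1 at 4 h and 2 in wild type from 2 h to 4 h. Weights called 1 other GH3 gene in crl1 at 2 h and from 2 h to 4 h, DAO (1) in both, and 2 Aux/IAA genes in crl1 from 2 h to 4 h, and quantile normalization called DAO (1) in crl1 at 2 h. Without the filter 0 hydrolases, 0 Aux/IAA genes over all times and 0 transporters at 0 h were called, centring left 0 Aux/IAA genes in crl1 at 2 h, and raising to background left 0 transporters at 0 h and called 1 Aux/IAA gene in wild type at 2 h. With an array left out, list counts ran from 0 to at most 2 other GH3 genes, 2 hydrolases, 1 synthesis gene, 1 DAO, 1 transporter and 7 Aux/IAA genes (3 for crl1 against wild type at 2 h and 4 over all times). Signals of IAMT1 and PIN2 in crl1 are limited by background.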
